A study of Mus musculus with 4 samples.

Results

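The genes of the mouse major histocompatibility complex (MHC) and of antigen presentation were examined in soleus muscle of *mdx* mice, a dystrophin-deficient model of Duchenne muscular dystrophy. They were chosen by name and not by expression: every symbol that starts with H2-, together with B2m, Cd74, Tap1, Tap2, Tapbp, Nlrc5 and Ciita. This gave 51 of the 24054 gene symbols in the table, of which 32 belong to class I, 11 to class II and the others to neither. Of the 51 members, 28 passed the filter on low counts and were tested, 13 were below it and 10 had no count in any library.

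All 4 libraries came from female *mdx* mice of the C57BL/10ScSn background that were infused each month through the femoral vein from 8 weeks of age up to a 12-month endpoint. 2 muscles came from mice that received mCDCs (mouse cardiosphere-derived cells at passage 5, grown from the heart of 1 mouse of the same inbred background) and 2 from mice that received vehicle, the culture medium without cells. No library came from a mouse without the *mdx* mutation, so all values are for dystrophic muscle. The labels name separate libraries but do not state how the muscles were assigned to animals, so p-values measure the spread between these 4 libraries only.

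Class I molecules pair a heavy chain with beta-2-microglobulin and show peptides from inside the cell to CD8 T cells, and nearly all nucleated cells carry them. Class II molecules pair an alpha with a beta chain, take up peptides from engulfed protein with the help of the invariant chain and H2-DM, and show them to CD4 T cells. They are found mainly on dendritic cells, macrophages and B cells. Resting muscle fibers express little class I, and class I on fibers is a known feature of inflamed muscle. Mice of the C57BL/10 background carry the H2b haplotype, which has no H2-L gene and no functional class II E alpha chain.

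Transcription of both classes is controlled through a conserved promoter module of X and Y boxes, on which NLRC5 acts for class I and CIITA for class II. Promoter sequence is shown for 3 class I and 2 class II genes that hold this module, because it is the control element that both classes have in common. The windows run from 180 to 21 bases before the RefSeq start of the gene (build GRCm38.p6), are read 5′ to 3′ on the strand of the gene, and lie at chr17:34000354-34000513 on the minus strand for H2-K1, chr17:35379437-35379596 on the plus strand for H2-Q4, chr2:122147507-122147666 on the plus strand for B2m, chr17:34287844-34288003 on the minus strand for H2-Aa and chr17:34305687-34305846 on the plus strand for H2-Eb1. Capitals mark TGANG followed 22 to 28 bases further on by ATTGG (the cores of the X2 and Y boxes), GTTTCNNTT (core of the interferon-stimulated response element) and GGGATTCCC (core of the kappa-B element). For H2-K1 RefSeq gave more than a single start, and the start whose X2 and Y pair lay farthest upstream was used. The H2-K1 window lies within the annotated span of the gene, which ends at 34000619.
H2-K1: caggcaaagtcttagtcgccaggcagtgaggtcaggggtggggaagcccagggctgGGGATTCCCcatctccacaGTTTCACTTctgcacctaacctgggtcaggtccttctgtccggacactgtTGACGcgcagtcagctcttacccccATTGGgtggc
H2-Q4: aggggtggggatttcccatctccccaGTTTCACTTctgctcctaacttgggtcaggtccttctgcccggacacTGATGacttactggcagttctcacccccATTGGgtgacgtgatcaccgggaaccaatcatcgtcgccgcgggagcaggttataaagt
B2m: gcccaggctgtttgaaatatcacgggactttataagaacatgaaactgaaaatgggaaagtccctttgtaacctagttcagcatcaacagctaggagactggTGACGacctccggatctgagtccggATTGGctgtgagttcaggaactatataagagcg
H2-Aa: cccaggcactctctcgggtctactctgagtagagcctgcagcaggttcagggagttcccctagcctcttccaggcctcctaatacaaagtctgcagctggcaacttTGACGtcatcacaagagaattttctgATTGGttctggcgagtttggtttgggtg
H2-Eb1: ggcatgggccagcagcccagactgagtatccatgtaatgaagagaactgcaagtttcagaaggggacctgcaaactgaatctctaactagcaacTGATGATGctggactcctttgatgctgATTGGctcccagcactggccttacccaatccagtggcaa

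The motifs and their spacing were set after these promoters had been seen, so the counts are a description. In windows of 250 bases before to 50 bases after the start, on both strands, the spaced pair occurred in 7 of 23 class I genes and in 6 of 8 class II genes with a RefSeq window, and in 1.92% of all 32851 windows. All 7 of these class I genes were among the 9 that passed the filter on low counts, and 3 of the 6 class II genes were among the 4 that did. ATTGG alone occurred in 20 of 23 class I and 8 of 8 class II genes, and in 37.4% of all windows. The interferon-stimulated core occurred in 11 of 23 class I genes (7 of the 9 that passed) and 2 of 8 class II genes (0 of the 4 that passed), against 5.77% of all windows. The kappa-B core occurred in 4 of 23 class I genes, all among the 9 that passed, and 0 of 8 class II genes, against 0.353% of all windows. Promoters of neighboring class I genes are copies of each other in large part and are not independent. A match of letters does not show a bound site, and the lack of one says only that these letters are not in the window.

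Library totals ran from 22481391 to 27187425 expected counts, and 1 CPM (1 count in each 1000000 after scaling) equaled 21.9 to 27.5 counts. The 7 genes listed as slow soleus fiber markers together took between 104706 and 125265 CPM in each library. Acta1 and Ckm in this list are not specific to slow fibers. A gene was called when it differed by more than 1.5-fold with an unadjusted p under 0.05 in edgeR's quasi-likelihood test, and p-values were adjusted over all genes by the Benjamini-Hochberg method. By that rule 546 of 13652 genes tested, or 4.0%, were called, 172 of them higher with mCDCs and 374 lower. No gene reached an adjusted p under 0.05 in this test, 947 genes had an unadjusted p under 0.05, and DESeq2 gave 48 genes with an adjusted p under 0.05.

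None of the 28 tested members was called, and none had an unadjusted p under 0.05. Their smallest adjusted p in edgeR's quasi-likelihood test was 0.763. DESeq2 called 0 of 41 members, against 2.35% of all genes in that fit. The log2 fold changes, given throughout as mCDC minus vehicle, ran from −0.65 for H2-Q6 to 0.18 for H2-Ke2 with a median of −0.17, beside a median of −0.01 over all genes tested. In 21 of the 28 members the estimate was below 0, and in 7 it was above. Both mCDC libraries were above both vehicle libraries in 0 members, against 19.2% of all genes, and below them in 2 members (H2-L and H2-T9), against 19.4% of all genes.

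**Figure D1:**
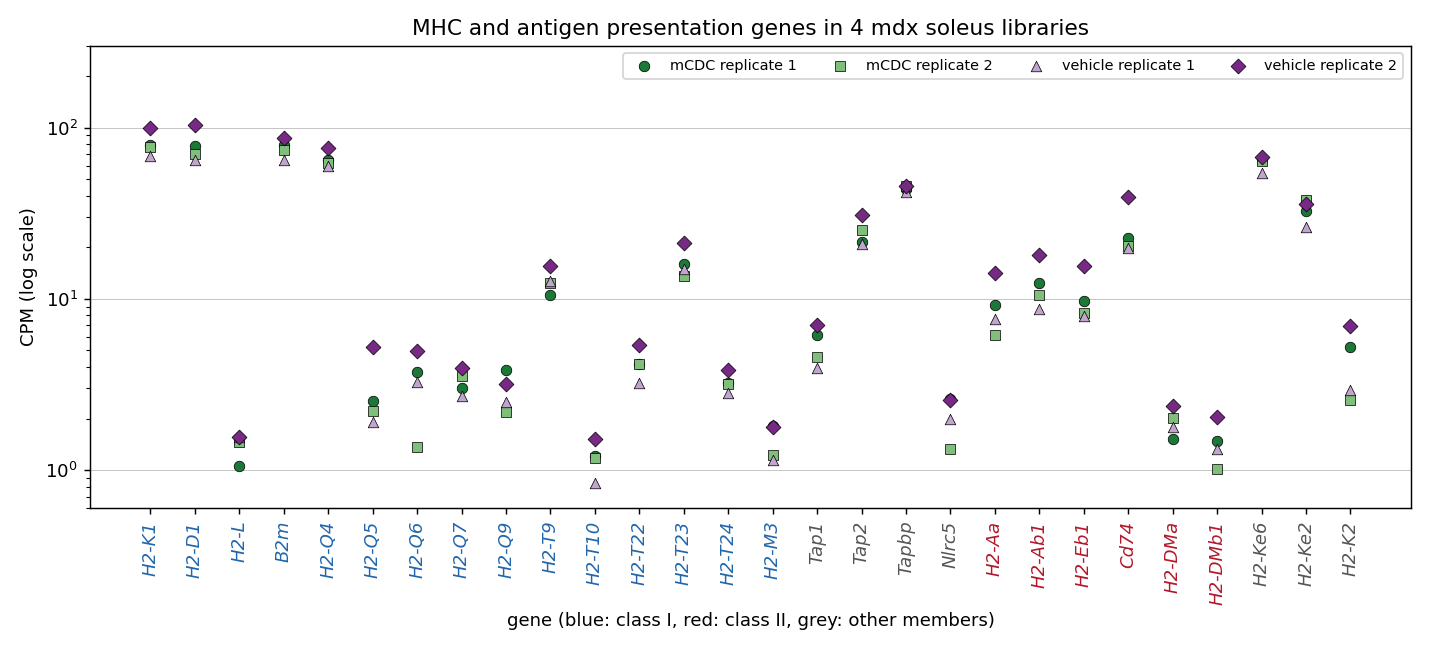
CPM (log scale) of each of the 28 tested members in the 4 libraries, grouped as class I (blue), other members (grey) and class II (red) along the horizontal axis. Vehicle replicate 2 (diamonds) was the highest library in 23 of the 28 genes, and vehicle replicate 1 (triangles) was the lowest in 18.

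By the median over these genes the vehicle libraries stood further apart from each other (0.55 on the log2 scale) than the groups did (−0.17). This did not hold for H2-L, H2-Q6 and H2-T9. A gap between single libraries also varies more than a gap between means of 2 libraries. Vehicle replicate 2 was the highest of the 4 libraries in 23 of 28 members, against 29.4% of all genes. Vehicle replicate 1 was the lowest in 18 of 28, against 26.4% of all genes. The median difference between the vehicle libraries, replicate 2 minus replicate 1, was 0.55 on the log2 scale over the members and 0.01 over all genes. Between the mCDC libraries the same median was −0.12 over the members.

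Among the classical class I heavy chains, which present peptides to CD8 T cells, H2-K1 (chromosome 17, 33996012 to 34000619, GRCm38) was at 79.5 and 77.0 CPM with mCDCs and at 68.0 and 99.6 CPM with vehicle. Both mCDC values lay between the vehicle values. The log2 fold change was −0.10 (standard error, SE, 0.19, 95% interval −0.53 to 0.33; edgeR adjusted p = 0.915). H2-D1 (chromosome 17, 35263094 to 35267497) was at 78.1 and 70.3 CPM with mCDCs and at 64.4 and 104 CPM with vehicle. Again the vehicle libraries were the lowest and the highest, and the log2 fold change was −0.18 (SE 0.22, 95% interval −0.69 to 0.32; edgeR adjusted p = 0.855). Stretches of 75 bases, the length of a read, were compared between all annotated transcripts. Of these stretches, 3.10% for H2-K1 and 5.40% for H2-D1 also occur in other genes. H2-L, H2-Q8, H2-Q9 and H2-T9 had no matched transcript and were not compared. The shares given here and below can therefore be too low.

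B2m (chromosome 2, 122147687 to 122153082), the light chain that every class I molecule needs, was at 79.6 and 74.4 CPM with mCDCs and at 64.7 and 86.8 CPM with vehicle. The log2 fold change was 0.02 (SE 0.17, 95% interval −0.36 to 0.41; edgeR adjusted p = 0.983). None of its 75-base stretches occurs in another gene. Per kilobase of the longest annotated transcript, B2m had the highest level of the members with a matched transcript, at a mean of 88.8 CPM per kilobase (75.2 to 101 over the 4 libraries). Among the class I members H2-K1 followed at 43.2 (36.3 to 53.2) and H2-D1 at 37.7 (30.7 to 49.6), and the ranges of these 2 heavy chains overlapped each other and those of H2-Ke6 at 48.5 and H2-Ke2 at 37.9, which have no established part in presentation.

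H2-L was listed at 1.06 and 1.46 CPM with mCDCs and at 1.56 and 1.56 CPM with vehicle. Both mCDC values were below both vehicle values, and the log2 fold change was −0.32 (SE 0.34; edgeR adjusted p = 0.835). No annotated transcript was matched to H2-L, so its sharing of sequence with other class I genes, and the source of reads listed under a gene that the H2b haplotype lacks, was not tested. The sum of H2-L and H2-D1 was 79.1 and 71.8 CPM with mCDCs and 66.0 and 106 CPM with vehicle.

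Of the 9 genes of the Q region, which encode the Qa class Ib heavy chains, 5 were tested. H2-Q4 was at 65.0 and 62.1 CPM with mCDCs and at 59.9 and 76.1 CPM with vehicle, with a log2 fold change of −0.10 (SE 0.16, 95% interval −0.46 to 0.26; edgeR adjusted p = 0.891). Together H2-K1, H2-D1 and H2-Q4 took 79.97% to 81.3% of the CPM of all class I heavy chains in each library. The other 4 tested Q genes were each between 1.36 and 5.21 CPM in every library.

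H2-Q5, annotated as a transcribed pseudogene, was at 2.55 and 2.20 CPM with mCDCs and at 1.91 and 5.21 CPM with vehicle. Vehicle replicate 2 was more than 2 CPM above the other libraries, and the log2 fold change was −0.59 (SE 0.44; edgeR adjusted p = 0.782). H2-Q6 was at 3.76 and 1.36 CPM with mCDCs and at 3.25 and 4.94 CPM with vehicle. Here mCDC replicate 2 was the lowest library, and the log2 fold change was −0.65 (SE 0.44; edgeR adjusted p = 0.767).
H2-Q7 was at 3.004 and 3.53 CPM with mCDCs and at 2.70 and 3.92 CPM with vehicle. H2-Q9 was at 3.84 and 2.18 CPM with mCDCs and at 2.51 and 3.17 CPM with vehicle. For both genes the groups overlapped, and the log2 fold changes were −0.03 for H2-Q7 and 0.09 for H2-Q9.

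The assignment of reads among the Q genes was uncertain. H2-Q5, H2-Q6 and H2-Q7 share 21.2%, 17.9% and 17.0% of their 75-base stretches with other genes. H2-Q8 and H2-Q9 were not in that comparison. H2-Q8, which was not tested, held 33.74 expected counts in mCDC replicate 2 and 0 in each of the other 3 libraries, and mCDC replicate 2 was the library with the lowest H2-Q6. The sum of H2-Q6 and H2-Q8 was 3.76 and 2.90 CPM with mCDCs and 3.25 and 4.94 CPM with vehicle, so mCDC replicate 2 was the lowest library for the sum too. When the 9 Q genes were summed before the test, the log2 fold change was −0.12 (SE 0.16; edgeR adjusted p = 0.870).

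In the T region, 5 of 7 genes were tested. H2-T23, which encodes the Qa-1 chain that presents leader peptides of other class I chains to CD94/NKG2 receptors, was at 16.1 and 13.5 CPM with mCDCs and at 14.997 and 21.1 CPM with vehicle. Its groups overlapped, with a log2 fold change of −0.29 (SE 0.21; edgeR adjusted p = 0.776). H2-T9 was at 10.55 and 12.3 CPM with mCDCs and at 12.6 and 15.6 CPM with vehicle. Both mCDC values were lower, by less than 1 CPM for the nearest pair, and the log2 fold change was −0.30 (SE 0.19, edgeR adjusted p = 0.763). No annotated transcript was matched to H2-T9, so its sharing of sequence with other class I genes was not tested. 
H2-T22, a ligand of gamma-delta T cells, was at 4.17 and 4.14 CPM with mCDCs and at 3.25 and 5.37 CPM with vehicle. H2-T10, its close relative, was at 1.21 and 1.17 CPM with mCDCs and at 0.841 and 1.52 CPM with vehicle. The mCDC values lay between the vehicle values for both, and the log2 fold changes were −0.05 for H2-T22 and 0.01 for H2-T10. H2-T10 is annotated as a transcribed pseudogene and shares 16% of its 75-base stretches with H2-T22. For H2-T22, 18.5% are shared with other genes. H2-T24 was at 3.22 and 3.18 CPM with mCDCs and at 2.83 and 3.84 CPM with vehicle, a log2 fold change of −0.06. Summed before the test, the T region had a log2 fold change of −0.24 (SE 0.18; edgeR adjusted p = 0.774).

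In the M region, H2-M3, which presents formylated peptides, was the only 1 of 12 genes tested. H2-M3 was at 1.82 and 1.23 CPM with mCDCs and at 1.14 and 1.78 CPM with vehicle, with a log2 fold change of 0.07 (SE 0.38; edgeR adjusted p = 0.975). The other M genes had at most 2 counts in any library.

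Peptides reach class I through the TAP transporter, and tapasin holds the empty class I molecule at it. Tap1 was at 6.14 and 4.57 CPM with mCDCs and at 3.93 and 7.03 CPM with vehicle, a log2 fold change of −0.03 (SE 0.31; edgeR adjusted p = 0.989). Tap2 was at 21.6 and 25.2 CPM with mCDCs and at 21.02 and 30.9 CPM with vehicle, a log2 fold change of −0.15 (SE 0.21; edgeR adjusted p = 0.870). For both subunits the mCDC values lay between the vehicle values. Tapbp, which encodes tapasin, was at 43.8 and 45.5 CPM with mCDCs and at 42.3 and 45.5 CPM with vehicle. It had the narrowest interval of the tested members, with a log2 fold change of 0.02 (SE 0.14, 95% interval −0.29 to 0.34).

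Among the class II genes, the chains of the I-A molecule were H2-Aa (chromosome 17, 34282744 to 34287823) and H2-Ab1 (chromosome 17, 34263227 to 34269418). H2-Aa, the alpha chain, was at 9.17 and 6.17 CPM with mCDCs and at 7.67 and 14.1 CPM with vehicle, a log2 fold change of −0.50 (SE 0.32, 95% interval −1.23 to 0.23; edgeR adjusted p = 0.763). H2-Ab1, the beta chain, was at 12.4 and 10.51 CPM with mCDCs and at 8.78 and 18.0 CPM with vehicle, a log2 fold change of −0.22 (SE 0.31, 95% interval −0.95 to 0.50; edgeR adjusted p = 0.874). Vehicle replicate 2 was the highest library for both chains, and vehicle replicate 1 lay between the mCDC values for H2-Aa and below them for H2-Ab1.

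H2-Eb1, the E beta chain, was at 9.66 and 8.27 CPM with mCDCs and at 7.97 and 15.5 CPM with vehicle. The log2 fold change was −0.39 (SE 0.30, 95% interval −1.08 to 0.31; edgeR adjusted p = 0.785). H2-Ea-ps, the E alpha pseudogene of this haplotype, had 0 counts in each library. Cd74, the invariant chain that guards the class II groove until the endosome, was at 22.7 and 20.2 CPM with mCDCs and at 19.8 and 39.1 CPM with vehicle. It had a log2 fold change of −0.46 (SE 0.29, 95% interval −1.12 to 0.21; edgeR adjusted p = 0.763), with vehicle replicate 2 the highest library here as well. None of the 75-base stretches of H2-Aa, H2-Ab1, H2-Eb1 and Cd74 occurs in another gene.

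H2-DM exchanges the invariant chain fragment for a peptide. H2-DMa was at 1.51 and 2.01 CPM with mCDCs and at 1.79 and 2.36 CPM with vehicle, a log2 fold change of −0.25 (SE 0.32; edgeR adjusted p = 0.862). H2-DMb1 was at 1.48 and 1.02 CPM with mCDCs and at 1.33 and 2.05 CPM with vehicle, a log2 fold change of −0.43 (SE 0.38; edgeR adjusted p = 0.809). The groups overlapped for both. H2-DMb1 shares 15.8% of its 75-base stretches with H2-DMb2, and their sum was 1.48 and 1.10 CPM with mCDCs and 1.37 and 2.22 CPM with vehicle. H2-Oa and H2-Ob, which form the inhibitor of H2-DM in B cells, had 0 to 2 and 2 to 7 counts per library and were not tested.

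Nlrc5, the transactivator of class I genes, was at 2.61 and 1.32 CPM with mCDCs and at 1.98 and 2.58 CPM with vehicle, a log2 fold change of −0.19 (SE 0.37; edgeR adjusted p = 0.915). Ciita, the transactivator of class II genes, had 4 and 3 counts with mCDCs and 8 and 21 counts with vehicle and was below the filter. Both mCDC counts were lower than both vehicle counts. In the fit without a filter on low counts Ciita was the only member called, with a log2 fold change of −1.86 (SE 0.72, unadjusted p = 0.0368, edgeR adjusted p = 0.774). That is 1 of 41 members, against 3.71% of all genes called in the same fit.

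**Figure D2:**
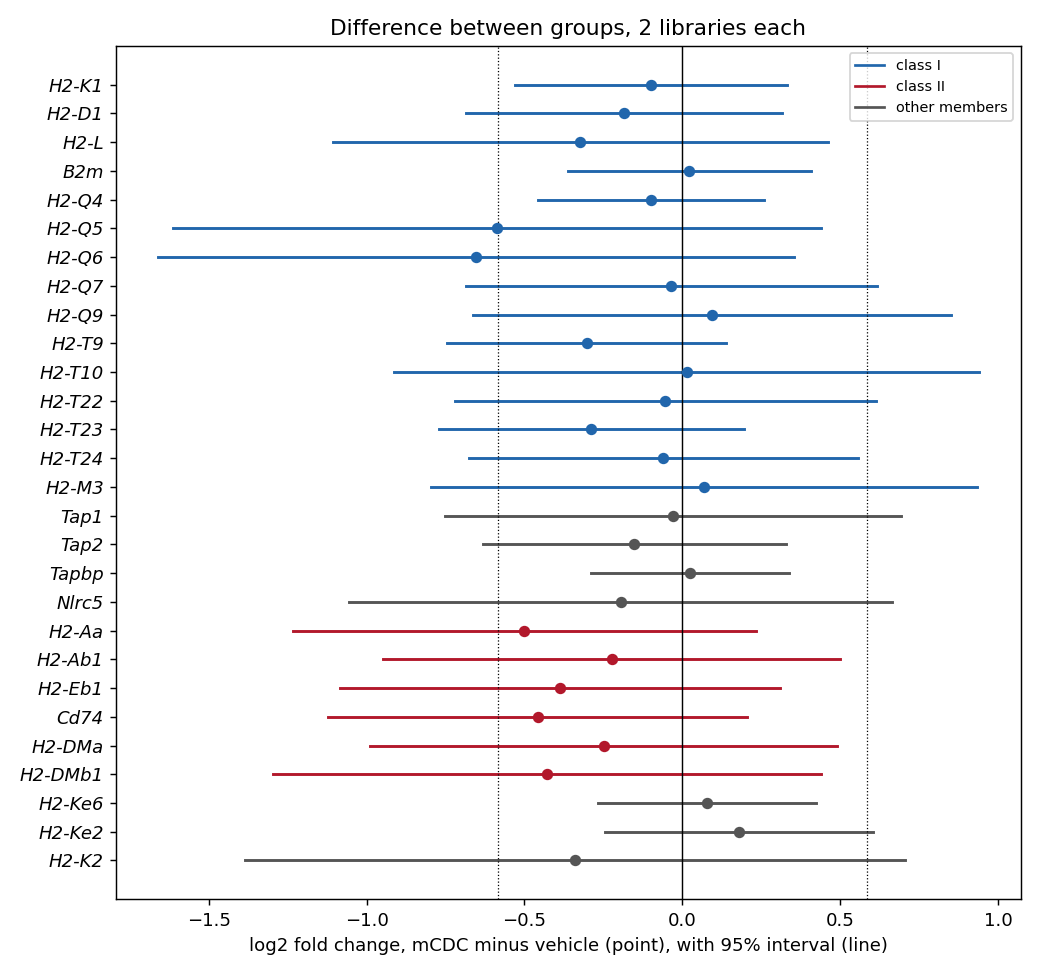
Log2 fold change (mCDC minus vehicle, horizontal axis) of the 28 tested members with its 95% interval from edgeR's fit, for class I (blue), class II (red) and other members (grey); dotted lines mark a 1.5-fold difference. All 28 intervals include 0, and the 6 class II genes all have estimates between −0.50 and −0.22.

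3 further symbols begin with H2- but have no established part in presentation. H2-Ke6, a hydroxysteroid dehydrogenase, was at 65.3 and 63.6 CPM with mCDCs and at 54.6 and 67.5 CPM with vehicle. H2-Ke2, a subunit of the prefoldin chaperone, was at 32.5 and 37.6 CPM with mCDCs and at 26.3 and 35.6 CPM with vehicle. Their log2 fold changes were 0.08 (SE 0.15) for H2-Ke6 and 0.18 (SE 0.18) for H2-Ke2, and 65.5% of the 75-base stretches of H2-Ke6 also occur in the overlapping gene Gm20427. H2-K2, a transcribed pseudogene, was at 5.24 and 2.57 CPM with mCDCs and at 2.92 and 6.98 CPM with vehicle, a log2 fold change of −0.34 (SE 0.45).

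The 23 members that were not tested included 17 class I genes, 5 class II genes and Ciita. Besides H2-Q8 and Ciita, the highest counts were 9.50 for H2-Q10 (1.06 and 5.28 with mCDCs, 9.50 and 8.46 with vehicle), 7 for H2-Ob and 4.69 for H2-DMb2. The 10 members at 0 in all libraries were H2-Ea-ps, H2-T3 and 8 M region genes. A count of 0 allows up to 3 counts in a library, so these genes were not detectable at this depth. This limit covers counting error only.

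For class I against class II, the CPM of all members of a class were summed in each library. The class I sum was 354 and 332 CPM with mCDCs and 305 and 435 CPM with vehicle. The class II sum was 57.2 and 48.5 CPM with mCDCs and 47.6 and 91.5 CPM with vehicle. For both classes the mCDC values lay between the vehicle values, and the log2 ratios of the group means were −0.11 for class I and −0.40 for class II. With 2 libraries per group, an exact permutation test of such a sum cannot give a two-sided p below 0.333, and none was run.

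The class II sum as a percentage of the class I sum was 16.2% and 14.6% with mCDCs and 15.6% and 21.02% with vehicle. The groups overlapped, and vehicle replicate 2 was the highest. For the chains alone, H2-Aa, H2-Ab1 and H2-Eb1 together were 19.8% and 16.9% of H2-K1 and H2-D1 with mCDCs and 18.4% and 23.3% with vehicle. Gene by gene, the median log2 fold change was −0.10 over the 15 tested class I genes (11 below 0) and −0.41 over the 6 tested class II genes (6 below 0), beside −0.01 over all genes tested. Between the vehicle libraries, replicate 2 minus replicate 1, the medians were 0.52 for class I and 0.91 for class II.

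**Figure D3:**
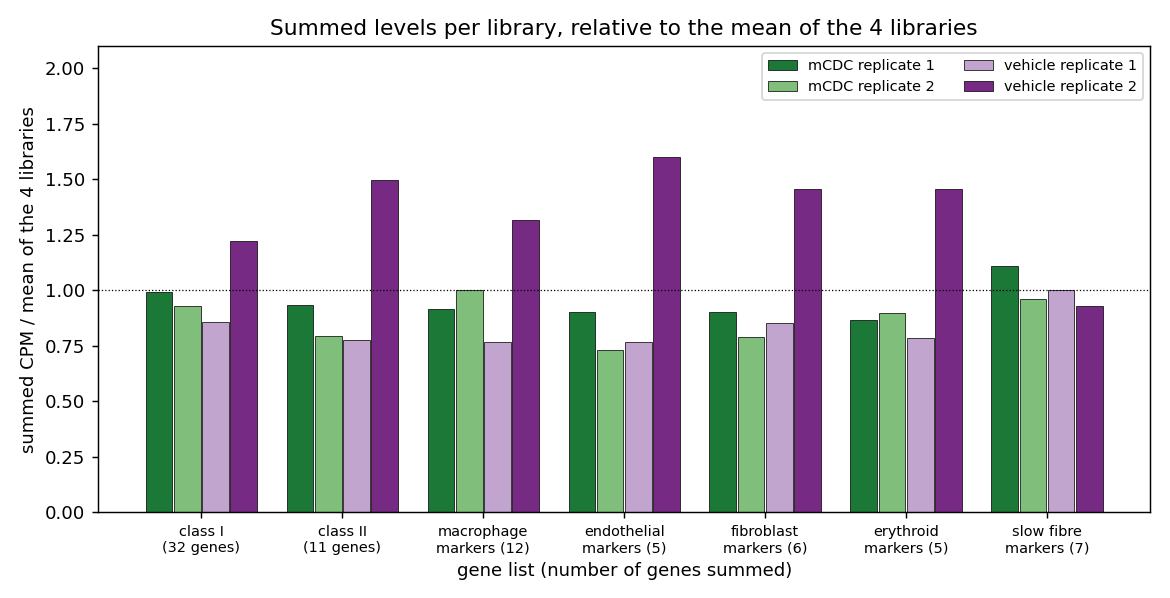
Summed CPM of class I, class II and 5 marker lists in each library, divided by the mean of the 4 libraries (vertical axis; bars start at 0, and the dotted line marks the mean). Vehicle replicate 2 is the highest bar in every list but the slow fiber markers.

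Marker genes of several other cell types, though not of all, were highest in the same vehicle library as the class I and class II sums. In bulk muscle, fewer cells of a type and less RNA per cell cannot be told apart. The 12 macrophage markers, all of them tested, summed to 58.3 and 63.9 CPM with mCDCs and to 48.8 and 83.9 CPM with vehicle. 8 of the 12 were highest in vehicle replicate 2, and none was at 0. Cd68 was called higher and Csf1r, the receptor for macrophage colony-stimulating factor, was called lower (edgeR adjusted p = 0.700 and 0.713). Over all genes 4.0% were called. Cd68 was at 4.13 and 15.4 CPM with mCDCs and at 2.71 and 4.15 CPM with vehicle, so mCDC replicate 2 alone stood above the vehicle values. Csf1r was at 5.11 and 3.93 CPM with mCDCs and at 5.57 and 8.84 CPM with vehicle, with no overlap.

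The 8 dendritic cell markers, of which 4 were tested and none was called, summed to 3.77 and 5.02 CPM with mCDCs and to 4.14 and 6.29 CPM with vehicle. No dendritic cell marker was at 0 in all libraries, though Ccr7 had 0 counts in mCDC replicate 2. The 6 B cell markers were all below the filter, with sums of 1.10 and 0.731 CPM with mCDCs and of 0.458 and 0.509 CPM with vehicle, and Ms4a1 (CD20) was at 0 in all libraries. Of the 7 T cell markers 2 were tested and none was called, with sums from 1.503 to 1.82 CPM with mCDCs and from 1.27 to 1.68 CPM with vehicle, and Cd3g was at 0 in all libraries. The 3 general leukocyte markers, all tested and none called, summed to 8.90 and 9.78 CPM with mCDCs and to 6.72 and 13.0 CPM with vehicle.

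Of the cells without an immune role, the 5 endothelial markers summed to 106 and 85.6 CPM with mCDCs and to 89.9 and 187 CPM with vehicle, and none was called. The 6 fibroblast markers summed to 320 and 280 CPM with mCDCs and to 302 and 516 CPM with vehicle. Pdgfra and Lum were called lower (edgeR adjusted p = 0.713 and 0.626). The 5 erythroid markers summed to 270 and 279 CPM with mCDCs and to 244 and 454 CPM with vehicle. Hba-a2 was called lower (edgeR adjusted p = 0.200). The share called over all genes was 4.0%. Vehicle replicate 2 was the highest library for all 5 endothelial, all 6 fibroblast and all 5 erythroid markers. The 4 adipocyte markers, none of them called, went the other way in 3 genes: Adipoq, Plin1 and Cidec were highest in vehicle replicate 1 and lowest in vehicle replicate 2. Adipoq, named after its values were seen like the other 2, was at 3.33 and 3.33 CPM with mCDCs and at 5.46 and 1.49 CPM with vehicle. The adipocyte sum, most of it from Fabp4, was 123 and 123 CPM with mCDCs and 140 and 203 CPM with vehicle. The 3 neutrophil markers summed to 0.949 and 0.975 CPM with mCDCs and to 0.693 and 1.83 CPM with vehicle, and the 4 natural killer cell markers to at most 0.124 CPM in any library. The part of these cells in the MHC values was not tested.
Per CPM of endothelial markers, the 3 class II chains stood at 0.296 and 0.291 with mCDCs and at 0.272 and 0.254 with vehicle, and H2-K1 with H2-D1 at 1.49 and 1.72 against 1.47 and 1.09. On this scale both mCDC libraries were above both vehicle libraries for these 3 class II chains and for these 2 class I chains. For unscaled CPM that order held in 19.2% of all genes. The scale was not computed for the sums of all members. Per CPM of macrophage markers the class II chains stood at 0.536 and 0.391 with mCDCs and at 0.501 and 0.567 with vehicle. The groups overlapped there. The log2 ratio of the group means of these class II chains was −0.36 unscaled, 0.16 per endothelial CPM and −0.20 per macrophage CPM. Its direction thus depended on the list used for scaling, and the other marker lists were not used.

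Because 1 vehicle library lay above and the other below most values, the fit was repeated with each library left out. This leaves 1 library in that group and assumes that it varies like the other group. After their own filter on low counts these fits tested 29 or 30 members. The 28 members counted by direction are those tested with all 4 libraries. Without vehicle replicate 2, the median log2 fold change turned to 0.20 for class I and to 0.06 for class II, and only 6 of 28 members stayed below 0. Without vehicle replicate 1, the medians were −0.34 and −0.74, and all 28 members were below 0. That fit called 6 members lower (Cd74, Ciita, H2-Aa, H2-Ab1, H2-Eb1 and H2-Q5), with 7.92% of all genes called and adjusted p from edgeR between 0.207 for Cd74 and 0.379 for Ciita. Without mCDC replicate 1 the medians were −0.13 and −0.52. That fit called H2-Aa and H2-Q6 lower (edgeR adjusted p = 0.577 and 0.220) and H2-Q8 higher, with 6.73% of all genes called. H2-Q8 had an adjusted p of 0.0091 in edgeR there, which rests on the 33.74 counts of the single mCDC library left in the fit. Without mCDC replicate 2 no member was called, against 2.49% of all genes, and the medians were −0.07 and −0.26.

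**Figure D4:**
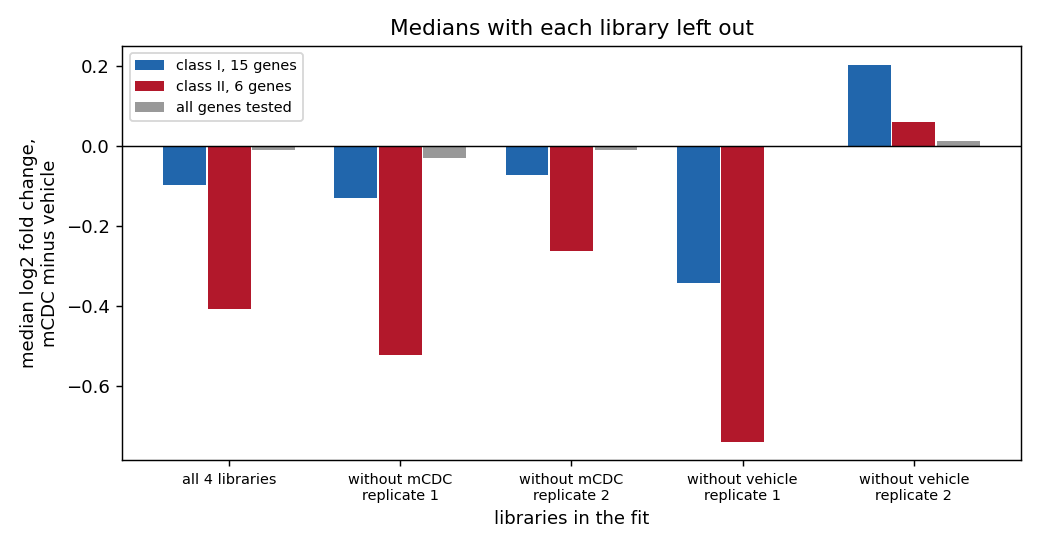
Median log2 fold change (mCDC minus vehicle, vertical axis) over the 15 class I genes, the 6 class II genes and all genes tested, with all 4 libraries and with each library left out. Both class medians are above 0 only without vehicle replicate 2, at 0.20 and 0.06.

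Other genes of the class I pathway were the immunoproteasome, its activator, peptide trimming and the chaperones of the endoplasmic reticulum. All 10 were tested and 0 were called, with a median log2 fold change of 0.01. Psmb8, an immunoproteasome subunit, was at 4.24 and 4.11 CPM with mCDCs and at 3.62 and 5.02 CPM with vehicle. Psmb9, a second one, was at 1.89 and 1.37 CPM with mCDCs and at 1.22 and 2.29 CPM with vehicle. Their log2 fold changes were −0.05 (SE 0.25) for Psmb8 and −0.10 (SE 0.39) for Psmb9, with the mCDC values between the vehicle values for both.

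Other genes of the class II pathway were lysosomal proteases, the RFX and NF-Y factors that bind the X and Y boxes, and costimulatory molecules. 12 of 16 were tested and 0 were called, with a median log2 fold change of 0.06. Both mCDC libraries were above both vehicle libraries in 6 of the 12 (Ctsl, Ctsb, Ctsd, Rfxap, Nfya and Nfyc) and below in 1 (Rfx5), against 19.2% and 19.4% of all genes. The summed CPM of the list, most of it from cathepsins, was 1243 and 1251 with mCDCs and 1098 and 1083 with vehicle. Ctsd, a lysosomal protease named after its values were seen, was at 610.1 and 637 CPM with mCDCs and at 514 and 490 CPM with vehicle, a log2 fold change of 0.31 (SE 0.13, unadjusted p = 0.0472, edgeR adjusted p = 0.713). Rfx5, a subunit of the X box factor, was at 8.86 and 9.04 CPM with mCDCs and at 11.9 and 11.02 CPM with vehicle. Both mCDC libraries were below both vehicle libraries, and the log2 fold change was −0.36 (SE 0.18; edgeR adjusted p = 0.726). Ifi30, the lysosomal thiol reductase, was at 4.13 and 6.62 CPM with mCDCs and at 3.55 and 7.02 CPM with vehicle, a log2 fold change of 0.01 (SE 0.36).

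Interferon-gamma is the main inducer of both classes. Ifng itself had 1 count in mCDC replicate 1 and 0 in the other libraries. Of 10 genes of its axis, with Ifng counted among them, 9 were tested and 0 were called, with a median log2 fold change of −0.09. Both mCDC libraries were below both vehicle libraries in 1 of the 9 (Jak2), against 19.4% of all genes, and above in 2 (Irf2 and Ptpn2), against 19.2%. These genes were named after their values were seen. Jak2, a kinase of the receptor, was at 19.5 and 17.4 CPM with mCDCs and at 29.6 and 24.3 CPM with vehicle, a log2 fold change of −0.55 (SE 0.17, unadjusted p = 0.0121, edgeR adjusted p = 0.637), under the 1.5-fold needed for a call. Irf2, a repressor of interferon-induced genes, was at 22.7 and 23.1 CPM with mCDCs and at 19.2 and 19.2 CPM with vehicle, a log2 fold change of 0.25 (SE 0.15, edgeR adjusted p = 0.747). Irf1, an interferon-induced factor that acts on class I promoters and on the Ciita gene, was at 10.604 and 9.41 CPM with mCDCs and at 8.39 and 15.9 CPM with vehicle, a log2 fold change of −0.28 (SE 0.29). For Irf1 the groups overlapped, and vehicle replicate 2 was the highest library.

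Class I-like molecules outside the H2 symbols include the MR1 and CD1d presenters, the neonatal Fc receptor and the iron regulator HFE. 5 of 7 were tested and 0 were called, with log2 fold changes from −0.25 to −0.16 and a median of −0.21. Vehicle replicate 2 was the highest library in 2 of the 5.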

How the data were processed

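Per the labels and the methods, RNA of whole soleus was sequenced as single-end reads, and the submitters' processing notes name Bowtie2 2.1.0, RSEM 1.2.15 and mm10. The authors deposited expected counts per gene without normalization, in which RSEM divides a read that matches several transcripts among them. The labels and the methods name different library kits, so it is open whether strand was kept.

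The rounded expected counts entered edgeR (4.0.16, under R 4.3.3) with filterByExpr, trimmed mean of M-values (TMM) scaling, the quasi-likelihood F-test (legacy = FALSE) and a prior count of 2, fitted over all genes, never over the members alone. CPM used TMM-scaled totals. DESeq2 1.42.0 was an alternative, and the procedure was tested on simulated data. Every member that passed the filter is named. The members and lists were chosen with earlier results of these data known. Names, lengths and 75-base stretches came from GENCODE vM21, where 47 of 51 members had a transcript; promoters came from RefSeq for 34 members. A gene of the interferon-gamma axis is not reported here.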

Additional observations from a re-analysis of the deposited data

How the results depend on the processing

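The number of members called stayed at 0 with DESeq2, the legacy form of edgeR's test, relative log expression size factors, at least 10 counts in every library, the replicate block and a length and GC trend removed, and was 1 of 41 without a filter on low counts, where 3.71% of all genes were called. Across these settings 226 of 231 values of named genes kept their direction and their side of the threshold. With the trend removed the log2 fold changes of H2-Q7 (0.028), Tap1 (0.00092), Tapbp (−0.0051) and Ifi30 (−0.014) changed sign, as did that of Tap1 with the replicate block (0.0075). Same-numbered libraries did not deviate together over all genes (r = −0.04) and share only a number, so no crossed pairing was run. With the block 172 genes were called higher and 308 lower, and the class medians were −0.07 and −0.35.

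Leaving out 1 library at a time gave 0 to 6 members called, 112 to 397 genes called higher and 236 to 834 called lower. The class medians ran from −0.34 to 0.20 for class I and from −0.74 to 0.058 for class II, and the log2 ratios of the summed CPM from −0.34 to 0.17 and from −0.79 to 0.15. The ratio of the class II share ran from −0.45 to −0.018. Vehicle replicate 2 decided the direction of both sums, and the cause was not tested. Of 132 such values of named genes 87 kept direction and side, 8 passed the threshold and 37 changed sign, with log2 fold changes from −0.17 to 0.25 for B2m, −0.86 to 0.11 for Cd74, −0.87 to 0.0017 for H2-Aa, −0.65 to 0.39 for H2-Ab1, −0.49 to 0.20 for H2-D1, −0.78 to 0.17 for H2-Eb1, −0.34 to 0.20 for H2-K1, −0.96 to 0.42 for H2-K2, −0.019 to 0.42 for H2-Ke2, −0.063 to 0.24 for H2-Ke6, −0.25 to 0.42 for H2-M3, −0.26 to 0.084 for H2-Q4, −1.13 to 0.31 for H2-Q5, −0.27 to 0.26 for H2-Q7, −0.37 to 0.43 for H2-Q9, −0.34 to 0.51 for H2-T10, −0.37 to 0.36 for H2-T22, −0.26 to 0.18 for H2-T24, −0.39 to 0.59 for Ifi30, −0.66 to 0.25 for Irf1, −0.78 to 0.19 for Nlrc5, −0.26 to 0.20 for Psmb8, −0.48 to 0.43 for Psmb9, −0.38 to 0.45 for Tap1, −0.40 to 0.15 for Tap2 and −0.024 to 0.077 for Tapbp. The estimates below 0 in every such fit ran from −1.58 to −0.13 for H2-Q6, −0.75 to −0.094 for H2-DMb1, −0.56 to −0.096 for H2-L, −0.51 to −0.02 for H2-T23, −0.46 to −0.034 for H2-DMa, −0.44 to −0.14 for H2-T9 and −0.42 to −0.30 for Rfx5. The depth limits the 23 members below the filter.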
